A study of Mus musculus with 48 samples.

Results

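Ferritin transcripts and the genes that handle iron around them were described in ribosome-bound RNA of mouse hippocampal astrocytes, in the whole cell and in the fine processes that wrap synapses. The group held 9 genes out of the 47643 listed in every count file: Ftl1 and Fth1, Ncoa4, Tfrc, Slc11a2, Slc40a1, Cp, Aco1 and Ireb2. They were matched by symbol to Ensembl gene IDs, and all 9 had enough counts to enter the test across genes. The ferritins were chosen by their measured counts, which were already known to be higher in the processes, and the other members were listed with them; the contrast between compartments is therefore given for all 9 genes as a description without p-values. The question asked of the data was whether the difference seen for the ferritins extends to other genes regulated by iron or acting on it.

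Iron is stored in cells inside ferritin, a hollow shell built from heavy chains, which oxidise iron, and light chains, which help it to mineralise. Iron regulatory proteins bind a small hairpin in messenger RNA, the iron-responsive element: in a 5′ untranslated region (UTR) binding blocks translation, and in the 3′ UTR of the transferrin receptor it protects the RNA from decay. In the brain, astrocytes touch both blood vessels and synapses and are known to take up, store and pass on iron.

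All mice carried the transgene Tg(Aldh1l1-eGFP/Rpl10a) JD130Htz, named Aldhl1:L10a-eGFP in the labels, in which a ribosomal protein fused to green fluorescent protein is made from the Aldh1l1 promoter. The tag is therefore present where that promoter is active, and RNA pulled down with an antibody to the fluorescent protein is the RNA on tagged ribosomes. The whole-astrocyte group (Astro; Full Astrocytes in the labels) and the perisynaptic astrocytic process group (PAP) both came from the dorsal hippocampus of the same 3 animals, C1 to C3, so that each group held 3 libraries, numbered here by animal. No treatment was given in the labels, both groups had the same genotype and pulldown, and age and sex were not stated. Each library was the sum of 8 technical replicates.

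Astro libraries held 18707844 to 20293538 counts and PAP libraries 1829962 to 2980984. Levels are counts scaled to a common library total (CPM) with TMM factors (trimmed mean of M values). On this scale 3 counts, taken as the limit of detection, were worth 0.152 to 0.176 CPM in Astro and 0.991 to 1.55 CPM in PAP, and such limits cover counting error only. Of 14618 genes tested with edgeR, 5.92% were called higher in PAP and 15.4% lower at an adjusted p under 0.05. The median log2 fold change of PAP over Astro was -0.53 over all tested genes, so a gene at 0 on this scale lies above the middle of the distribution. With the animal as a block in the model, 0.91% were called in either direction, 0.876% higher and 0.0342% lower, and that median was -1.63. Summed astrocyte markers were lower in PAP (4244 to 16309 CPM) than in Astro (28761 to 37447 CPM), and Aldh1l1 itself was at 81.3 ± 30.2 CPM in PAP and 235 ± 13.4 CPM in Astro (SD, n = 3 each).

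The iron-responsive elements of these transcripts were searched for first, to show which of the genes share this regulatory sequence as a match of letters. Annotated UTRs in GENCODE M21 on GRCm38 were searched on the sense strand for the loop CAGTGN between a pair of complementary stretches of 5 bases (G:T pairs allowed), with an unpaired C before the first stretch. Each match is printed as 29 bases with the loop in capitals. The ferritin sites come from the 5′ UTRs of Ftl1 (chr7:45459779-45459807, minus strand) and Fth1 (chr19:9982732-9982760, plus strand). Slc40a1 had a site in its 5′ UTR (chr1:45925465-45925493, minus strand). Tfrc had 4 sites in its 3′ UTR on the plus strand, at chr16:32631219-32631247, chr16:32631598-32631626, chr16:32631663-32631691 and chr16:32631710-32631738, printed in that order.
Ftl1: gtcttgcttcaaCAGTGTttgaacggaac
Fth1: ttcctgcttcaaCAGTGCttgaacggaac
Slc40a1: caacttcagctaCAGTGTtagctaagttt
Tfrc, first site: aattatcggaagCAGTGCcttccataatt
Tfrc, next site: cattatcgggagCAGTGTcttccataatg
Tfrc, next site: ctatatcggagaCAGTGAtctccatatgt
Tfrc, last site: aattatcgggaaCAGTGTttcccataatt

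The pattern was rare among annotated genes. It was found in the 5′ UTR of 31 of 20582 genes (0.151%) and in the 3′ UTR of 129 of 20978 genes (0.615%). Among genes whose longest annotated 5′ UTR measured 100 to 1000 bases, a range that holds Ftl1, Fth1 and Slc40a1, the share was 0.18%. Among those with a 3′ UTR of 1000 to 4000 bases, which holds Tfrc, it was 0.999%. A match is a match of letters and was not measured as a binding site, and no match was found in Cp, Ireb2, Aco1 or Ncoa4. None was found in Slc11a2 either, although an isoform of its transcript is known for such an element, so the search does not find every one.

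Ftl1, which encodes the ferritin light chain, lies at chr7:45457944-45459884 on the minus strand. Its level was 282 CPM in Astro 1, 218 CPM in Astro 2 and 274 CPM in Astro 3. In PAP it was 10109, 8608 and 8262 CPM in the same order of animals. Every PAP library was far above every Astro library, and the means were 258 ± 34.8 and 8993 ± 982 CPM (SD, n = 3 each). The fitted log2 fold change was 5.12 ± 0.21 (SE), the 241st largest of the 14618 tested. Within animals the PAP level was 35.9, 39.5 and 30.1 times the Astro level for C1, C2 and C3.

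Counts of Ftl1 were also higher in absolute number in PAP although those libraries were much smaller. The 3 Astro libraries held 5248, 3716 and 5400 counts of it, and the PAP libraries 19813, 16700 and 25002. When every library was thinned to 1829962 counts, Astro kept 467, 382 and 498 Ftl1 counts. In Astro the gene took 0.0199% to 0.0277% of all counts and ranked between 616 and 912 by count. It took 0.839% to 1.08% in PAP and was the gene with the most counts in PAP 2 and the next after the top in PAP 1 and PAP 3.

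Fth1, which encodes the ferritin heavy chain, lies at chr19:9980598-9985098 on the plus strand. It stood at 1819 CPM in Astro 1, 1273 CPM in Astro 2 and 1172 CPM in Astro 3, and at 5122, 5026 and 3639 CPM in PAP 1 to 3. The groups did not overlap, with means of 1421 ± 348 and 4596 ± 829.6 CPM (SD, n = 3 each). The log2 fold change was 1.69 ± 0.25 (SE), the 2015th largest of the 14618 tested, and the within-animal ratios were 2.82, 3.95 and 3.11. Its share of the library was 0.116% to 0.167% in Astro and 0.369% to 0.549% in PAP, and its rank by counts was 47 to 76 in Astro and 6 to 14 in PAP.

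**Figure D1:**
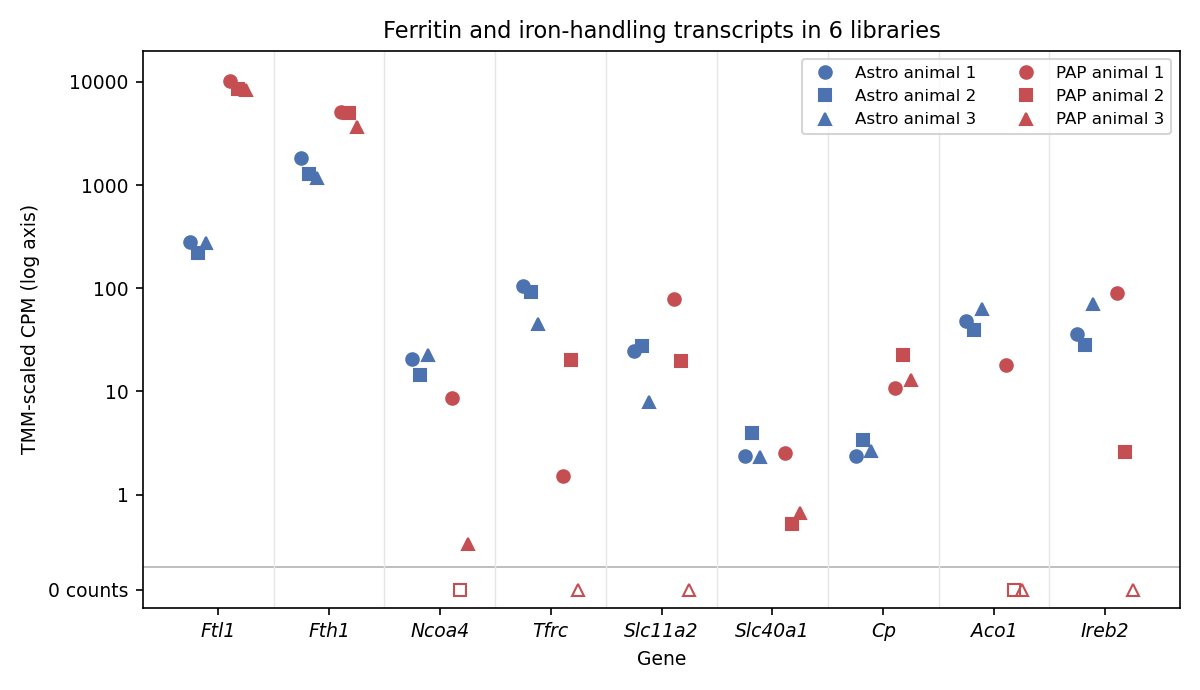
TMM-scaled CPM (log axis) of the 9 genes in each of the 6 libraries, Astro in blue and PAP in red, with 1 marker shape per animal and open markers below the line for libraries with 0 counts. Ftl1, Fth1 and Cp are higher in all 3 PAP libraries than in any Astro library, whereas the PAP values of Slc11a2 spread from 0 to 78.1 CPM and those of Ireb2 from 0 to 90.8 CPM.

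The balance between the chains differed between compartments. In Astro, Fth1 had 6.45, 5.84 and 4.27 counts for each count of Ftl1, and in PAP it had 0.507, 0.584 and 0.441. The heavy chain was thus the more counted transcript in every Astro library and the light chain in every PAP library. Per kilobase of the longest principal transcript (968 nt for Ftl1, 1494 nt for Fth1), Astro held 951 ± 233 CPM of Fth1 and 267 ± 36.0 CPM of Ftl1. PAP held 3076 ± 555 CPM per kilobase of Fth1 and 9290.3 ± 1015 of Ftl1. With the shorter Fth1 transcript of 929 nt the values of Fth1 were 1261 to 1958 CPM per kilobase in Astro and 3918 to 5513 in PAP, which leaves the order in each compartment as it was.

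**Figure D2:**
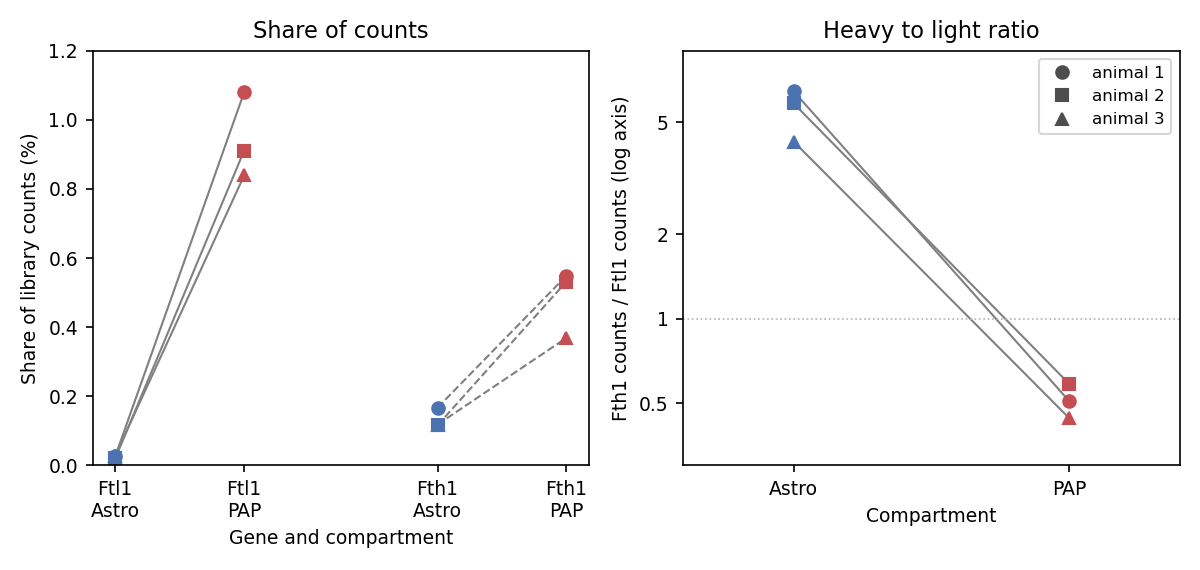
Left, percentage of all counts of a library taken by Ftl1 and Fth1, with lines joining the compartments of 1 animal; right, ratio of Fth1 to Ftl1 counts (log axis) in the same libraries, with a dotted line at 1. All 3 animals go from a ratio above 4 in Astro to one below 0.6 in PAP.

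Copies of the ferritin genes limit how exactly the counts can be placed. Of the 919 stretches of 50 bases in the Ftl1 transcript, 833 (90.6%) also occur in transcripts of 17 other annotated genes. Those in the count files took few counts: apart from Gm22133, the 14 copies held 3 to 6 counts in total in each Astro library and 16 to 21 in each PAP library. Gm22133 is an annotated small RNA gene whose 109 bases all lie inside a Ftl1 exon on the same strand (chr7:45458089-45458197). With it, all copies together came to 35.7% to 38.5% of the Ftl1 count in every library. For Fth1, 6.59% of such stretches occur elsewhere, in Gm6977, which held 0.35% to 0.442% of the Fth1 count. Adding the pseudogenes Ftl1-ps1, Ftl1-ps2 and Ftl2-ps to Ftl1 and Fth-ps2 to Fth1 left log2 fold changes of 5.12 and 1.69. Gm22133 and Gm6977 were not added, so the effect of placing their counts with the ferritins was not tested. In addition, 34.6% of the exonic bases of Ftl1 overlap Gm22133 or Gm10252, the latter on the opposite strand. The strand setting of the counting is not given in the sources used here, so reads of overlapping genes cannot be told apart.

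Ncoa4, the receptor that carries ferritin to lysosomes for degradation, lies at chr14:32159865-32179855 on the plus strand. It was at 20.8, 14.4 and 22.4 CPM in Astro 1 to 3 and at 8.67, 0 and 0.33 CPM in PAP 1 to 3. All PAP libraries were below all Astro libraries, and PAP 2 and PAP 3 had 0 and 1 count. The log2 fold change of -2.69 ± 1.68 (SE) did not pass the edgeR test. Ncoa4 was called lower by edgeR without PAP 1 (log2 fold change -6.63) and by limma voom. At equal depth the Astro libraries would have held 39, 20 and 41 counts, against 17 in PAP 1.

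Neither uptake gene was called in either direction. Tfrc, the transferrin receptor (chr16:32608920-32632794, plus strand), was at 104, 91.1 and 44.9 CPM in Astro 1 to 3. It was at 1.53, 20.1 and 0 CPM in PAP 1 to 3, below Astro in every library. Its log2 fold change was -3.48 ± 1.71 (SE). PAP 2 held 39 counts of it, PAP 1 held 3 and PAP 3 none, and without PAP 2 Tfrc was called lower. Slc11a2, the divalent metal transporter that moves iron out of endosomes (chr15:100387898-100425072, minus strand), was at 24.8, 27.5 and 7.92 CPM in Astro and 78.1, 19.6 and 0 CPM in PAP. The groups overlapped, with 153 counts in PAP 1 and none in PAP 3. Its log2 fold change was 0.70 ± 1.75 (SE), and without PAP 1 it was -1.08.

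The export side was represented by Slc40a1 and Cp. Slc40a1 encodes ferroportin, the iron exporter of the cell membrane (chr1:45908068-45926523, minus strand). It was low in both compartments, at 2.36, 3.93 and 2.34 CPM in Astro (44, 67 and 46 counts). In PAP it was at 2.55, 0.515 and 0.661 CPM, with 5, 1 and 2 counts, which is near the limit of detection there. The groups overlapped and the log2 fold change was -1.23 ± 0.74 (SE). Cp encodes ceruloplasmin, a copper-containing ferroxidase that works with ferroportin (chr3:19957054-20009145, plus strand). Its level was 2.36, 3.40 and 2.64 CPM in Astro and 10.7, 22.7 and 12.9 CPM in PAP. Cp was therefore higher in each PAP library than in any Astro library, with means of 2.80 ± 0.539 and 15.4 ± 6.37 CPM (SD, n = 3 each). The counts behind it were 44, 58 and 52 in Astro and 21, 44 and 39 in PAP. Its log2 fold change of 2.46 ± 0.82 (SE) did not pass the edgeR test. It passed in DESeq2, and in edgeR without PAP 1 and without PAP 3.

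Neither of the iron regulatory proteins was called by edgeR. Aco1, the cytosolic aconitase that becomes iron regulatory protein 1 when it loses its cluster (chr4:40143081-40198338, plus strand), was at 48.0, 39.0 and 63.6 CPM in Astro. It was at 17.9 CPM in PAP 1 and had no counts in PAP 2 or PAP 3, which puts every PAP library below Astro. The log2 fold change was -3.08 ± 2.02 (SE), and Aco1 was called lower by edgeR without PAP 1 and by limma voom. Ireb2, which encodes iron regulatory protein 2 (chr9:54863789-54912530, plus strand), was at 36.1, 28.4 and 70.1 CPM in Astro and 90.8, 2.58 and 0 CPM in PAP. The highest and the lowest of the 6 values both came from PAP libraries. Its log2 fold change was -0.53 ± 1.88 (SE), and it was -5.24 without PAP 1 and -0.01 without PAP 3.

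Counted over the 9 genes, 2 were called higher in PAP (Ftl1 and Fth1), where 5.92% of tested genes were. None was called lower by edgeR, where 15.4% were, and none reached an unadjusted p under 0.05 in that direction. With the animal as a block, 1 of the 9 reached it in that direction, but none was called lower. DESeq2 likewise called none of them lower. Limma voom called Aco1 and Ncoa4 lower, among 2915 of the 14618 tested genes, and called Ftl1 but not Fth1 higher. Ftl1, Fth1 and Cp lay above Astro in every PAP library, as did 10.9% of tested genes. Tfrc, Aco1 and Ncoa4 lay below it, as did 35.1%. Since the ferritins were chosen with this contrast known, nothing is read from these counts. The 7 genes other than the ferritins had a median log2 fold change of -1.23, against -0.53 for all tested genes. With the animal as a block the medians were -3.45 and -1.63, and Ftl1 was the 1 gene of the 9 that passed, where 0.91% of tested genes did. Fth1 kept a log2 fold change of 1.70 in that fit but was no longer called. Without any single Astro library, too, Ftl1 was the 1 gene called.

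Counts in PAP were uneven for the less abundant members. Slc11a2, Ireb2, Aco1 and Ncoa4 were each highest in PAP 1, and all of them except Ncoa4, which had 1 count, were at 0 in PAP 3. Missing counts of this kind were common. Of 7510 tested genes with a mean of 10 to 100 CPM in Astro, 4442 (59.1%) had 3 counts or fewer in at least 1 PAP library, and so had all 5 members in that band. The levels of these 5 genes in single PAP libraries are therefore of low precision.

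Ordered by mean level per kilobase, Astro ran from Fth1 (951 CPM per kilobase) and Ftl1 (267) to Tfrc (16.4), Aco1 (13.1), Ireb2 (7.77), Slc11a2 (6.63), Ncoa4 (4.73), Slc40a1 (0.854) and Cp (0.696). The libraries of neighbours did not overlap between Fth1 and Ftl1, between Ftl1 and Tfrc and between Ncoa4 and Slc40a1. In PAP the order was Ftl1 (9290.3), Fth1 (3076), Slc11a2 (10.8), Ireb2 (5.40), Cp (3.83), Aco1 (1.55), Tfrc (1.47), Ncoa4 (0.738) and Slc40a1 (0.369). There, Ftl1 and Fth1 stood apart from each other and from the rest, and all neighbours below them overlapped. Cp was last in Astro and stood above 4 of the others in PAP.

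Whether the ferritin pattern reached further was asked with 85 other genes of iron biology found in the files, of which 75 were tested. In the edgeR quasi-likelihood test 4 of the 75 rose in PAP and 15 fell, and 56 did not pass, beside 5.92% called higher and 15.4% called lower over all tested genes. Of the 75, 14 had 3 counts or fewer in all 3 PAP libraries, as had 16.5% of all tested genes. Their median log2 fold change was -1.11, against -0.53 for all tested genes. With genes at 3 counts or fewer in every PAP library set to their bound, the medians were -1.0 and -0.44. With the animal as a block they were -1.60 and -1.63, so that the distance between the iron genes and all tested genes was no longer seen. Levels in all PAP libraries were above Astro for 11 of the 75 and below it for 33, where 10.9% and 35.1% of all tested genes were. With the animal as a block none of the 75 was called by edgeR, although 3 had an unadjusted p under 0.05 on the higher side and 18 on the lower. Leaving out any single Astro library also left none of them called.

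Of the 6 lists, that of iron storage and chaperones was the 1 with a median above 0. Of its 5 tested genes, 2 rose, 1 fell and 2 did not pass, with a median log2 fold change of 0.98 (0.95 with the block, where none was called). Over all tested genes 5.92% were called higher and 15.4% lower, and a list of 5 genes is too short to set against these shares. Poly(rC)-binding proteins are RNA-binding proteins that also act as chaperones delivering iron to ferritin. Pcbp2 was at 102, 102 and 87.4 CPM in Astro and 475, 357 and 349.6 CPM in PAP. It rose by a log2 fold change of 2.02 ± 0.29 (SE; edgeR adjusted p = 0.0182; 0.166 with the block). Pcbp1 was at 202, 164 and 197 CPM in Astro and 486, 299 and 323 CPM in PAP, again without overlap, but did not pass (log2 fold change 0.98 ± 0.31; edgeR adjusted p = 0.0712). It passed in DESeq2, at equal depth, and when genes averaging under 100 counts were left out.

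Bola2, a partner of glutaredoxin 3 in iron-sulfur cluster transfer, was at 74.1 to 88.1 CPM in Astro and 149 to 393 CPM in PAP. Its log2 fold change was 1.87 ± 0.44 (edgeR adjusted p = 0.0276; 0.206 with the block), and the call was lost without PAP 1 or PAP 2, in voom and without a filter on low counts. Glrx3 itself, named here after its values were seen, was at 118 to 128 CPM in Astro and 149.7 to 297 CPM in PAP and did not pass (edgeR adjusted p = 0.181). Pcbp3, also named after its values were seen, went the other way: it was at 47.1 to 67.6 CPM in Astro and had 0, 0 and 2 counts in PAP, at least 35-fold lower (edgeR adjusted p = 0.0208; 0.206 with the block). Other annotated genes overlap 36.2% of the exonic bases of Pcbp2 and 8.78% of those of Bola2, so these values are uncertain to that extent.

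**Figure D3:**
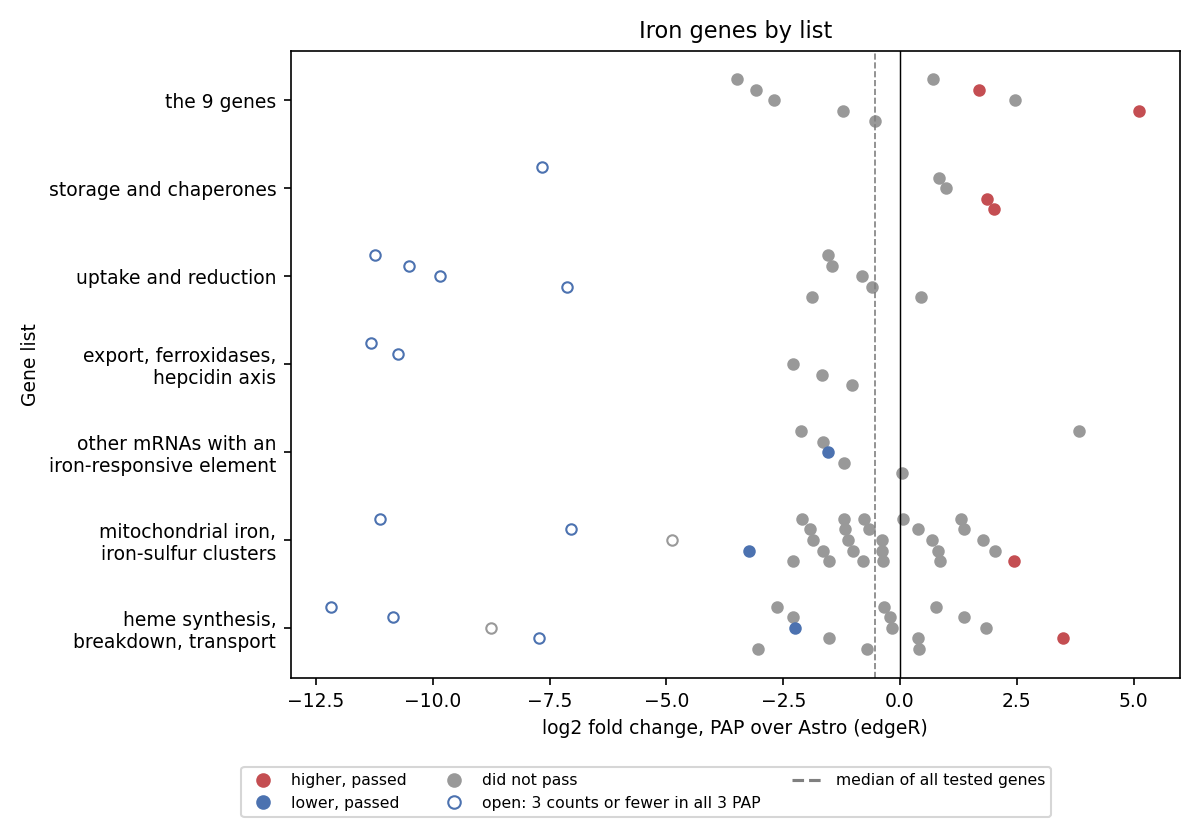
Log2 fold change (PAP over Astro, edgeR) of each tested iron gene, 1 row of points per list, coloured by the call, with open points for genes at 3 counts or fewer in all 3 PAP libraries, whose fitted value is not a measured size. The dashed line marks the median of all tested genes, -0.53; storage and chaperones is the list in which 4 of 5 points lie to the right of 0.

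The list of iron uptake and reduction gave 10 tested genes, of which none was called higher and 4 fell. Over all tested genes 5.92% were called higher and 15.4% lower, and a list of 10 genes is too short to set against these shares. The median log2 fold change of the list was -1.72 (-1.50 with bounds, -4.50 with the block). All 4 that fell were among the genes with 3 counts or fewer in every PAP library, a state of 16.5% of tested genes. None had an unadjusted p under 0.05 on the higher side, and neither DESeq2 nor limma voom called any higher. The 4 that fell were Steap2, Steap3, Cybrd1 and Lcn2, the last outside the naming rule. Steap2 and Steap3 are ferrireductases, and Cybrd1 is another reductase of iron. They were at 17.8 to 48.4, 7.87 to 13.3 and 14.6 to 19.5 CPM in Astro and had 0 counts in every PAP library. Their levels were at least 18-fold, 7-fold and 11-fold lower (edgeR adjusted p = 0.0216, 0.0208 and 0.0208, and 0.206 for each with the block). Astro 2 held the highest Steap2 level and the most choroid plexus markers (20237 CPM, against 2509.9 and 4624), whose part in it was not tested; without Astro 2, a check chosen after seeing the data, the bound for Steap2 was 12-fold. Tf, the gene of transferrin, was not analysed here.

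Export, ferroxidases and the hepcidin axis gave 5 tested genes, of which none rose and 2 fell. Over all tested genes 5.92% were called higher and 15.4% lower, and 5 genes are too few to set against these shares. The median of the list was -2.29 (-6.28 with the block). Neither of the 2 genes that fell exceeded 3 counts in any PAP library, which held for 16.5% of tested genes. On the higher side, none reached an unadjusted p under 0.05, and none was called by DESeq2 or limma voom. Heph, hephaestin, the membrane-bound relative of ceruloplasmin, was at 23.2 to 38.8 CPM in Astro and at 0 counts in all 3 PAP libraries, at least 19-fold lower (edgeR adjusted p = 0.0208; 0.206 with the block). The values of the ferroxidases Cp and Heph thus lay on opposite sides of Astro. Bmp6, a ligand that induces hepcidin in the liver, was at 11.1 to 37.0 CPM in Astro and at 0 counts in PAP, at least 13-fold lower (edgeR adjusted p = 0.0247; 0.206 with the block). Its highest level, too, was in Astro 2, and without that library the bound was 8-fold.

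Other messenger RNAs known for an iron-responsive element gave 6 tested genes with a median log2 fold change of -1.37, against -0.53 for all tested genes (-2.09 and -1.63 with the block). None of the 6 rose in PAP, beside 5.92% of all tested genes. A list of 6 genes is too short to set against this share. None of them had an unadjusted p under 0.05 on the higher side in edgeR, and DESeq2 and limma voom called none higher.

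The sequence match itself was then used as the list. Of tested genes with a match in the 5′ UTR, 22 were not among the 9. Of these, 1 was called higher and 4 lower, with a median log2 fold change of -0.21. The one called higher was Ftl1-ps1, a copy of Ftl1 that is annotated as protein-coding despite its symbol, with 1 to 5 counts in Astro and 8 to 16 in PAP. Of the 105 tested genes other than Tfrc with a match in the 3′ UTR, 8 were called higher and 16 lower, with a median of -0.40. Over all tested genes the shares were 5.92% higher and 15.4% lower.

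Mitochondrial iron and iron-sulfur cluster genes gave 30 tested genes, of which 1 rose and 3 fell, beside 5.92% and 15.4% of all tested genes. Their median log2 fold change was -0.79, below the -0.53 of all tested genes, but with the block it was -1.13, above their -1.63. The gene that rose was Fdx1l, a mitochondrial ferredoxin of cluster assembly, at 27.1 to 36.2 CPM in Astro and 164 to 191 CPM in PAP (log2 fold change 2.43 ± 0.39; edgeR adjusted p = 0.0208; 0.206 with the block). Of its exonic bases, 72.7% are shared with Gm38431 or Gm49373 on the same strand, so that its count may include those of its neighbours. Hscb, a co-chaperone of the same pathway, was at 22.9 to 30.6 CPM in Astro and at 0 counts in PAP, at least 17-fold lower (edgeR adjusted p = 0.0208; 0.206 with the block). Abcb10 and Narfl, outside the naming rule, were the others that fell.

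Heme genes gave 19 tested, of which 1 rose and 4 fell, beside 5.92% and 15.4% of all tested genes. Their median was -0.70, below the -0.53 of all tested genes, but with the block it was -1.08, above their -1.63. Flvcr1, a heme exporter of the cell membrane, was at 4.30, 6.75 and 2.89 CPM in Astro and at 14.8, 72.7 and 68.1 CPM in PAP. Its log2 fold change was 3.48 ± 0.96 (SE; edgeR adjusted p = 0.0469; 0.248 with the block), and 15.6% of its exonic bases overlap a gene on the opposite strand. The call was lost in 11 of 17 alternatives, among them voom, equal depth, no filter, and leaving out PAP 2 or PAP 3. Hmox1, the inducible heme oxygenase that releases iron from heme, was at 17.7 to 29.2 CPM in Astro and 0 counts in PAP, at least 14-fold lower (edgeR adjusted p = 0.0208; 0.206 with the block). Hmox2, the constitutive heme oxygenase, was at 93.8 to 105 CPM in Astro and 36.1 to 118 CPM in PAP, and its log2 fold change of -0.21 ± 0.54 did not pass (edgeR adjusted p = 0.862). Cdip1, on the opposite strand, overlaps 40.2% of its exonic bases. Slc46a1, a transporter of folate and heme, was at 40.9 to 78.8 CPM in Astro and 0 counts in PAP, at least 35-fold lower (edgeR adjusted p = 0.0208; 0.206 with the block). Urod and Hpx, outside the naming rule, also fell.

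The genes whose profile over the 6 libraries lay closest to each ferritin were found by Euclidean distance between centred log2 CPM. For Ftl1 they were Gm22133 (distance 0.0934), which lies inside it, then Mir1906-1 (0.503), Cmtm4 (0.537), Pabpc1 (0.557) and Ehbp1l1 (0.568). Pabpc1, the cytoplasmic poly(A)-binding protein, was at 65.3 to 70.3 CPM in Astro and 2135 to 3972 CPM in PAP. For Fth1 they were its copy Gm6977 (0.31), then Gm28037 (0.346), Rpl24 (0.348), Rpl7a (0.359) and Gm26737 (0.38). Gm28037 and Rpl24 had nearly the same level in every library, such as 80.7 and 80.6 CPM in Astro 1. They may therefore not be separate neighbours, and whether they share reads was not tested. Rpl24 and Rpl7a encode proteins of the large ribosomal subunit, with log2 fold changes of 1.91 and 1.84. None of the other iron genes was among these 10.

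Transcript length and other cell types moved with the compartments and are given beside the ferritin values. Of 785 tested protein-coding genes with a principal transcript under 1000 nt, 11.7% were called higher in PAP, against 5.88%, 3.07% and 5.28% in the classes from 1000, 2000 and 4000 nt on. The Ftl1 transcript falls in the shortest class and the longest principal transcript of Fth1 in the next. Summed plasma cell markers were at 48.5 to 74.6 CPM in Astro and 3239 to 7112 CPM in PAP, and 6 of the 8 tested were called higher. Ighm and Cd79a of that list were at 0 in all PAP libraries. Igkc, an immunoglobulin light chain constant region, was at 23.3 ± 2.79 CPM in Astro and 1869.8 ± 692 CPM in PAP (SD, n = 3 each).

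Microglial markers summed to 48.2 to 106 CPM in Astro and 81.3 to 219.6 CPM in PAP, with 3 of 9 tested called lower and with Cx3cr1, P2ry12, Tmem119 and Aif1 at 0 in every PAP library. Oligodendrocyte markers were at 831 to 914 CPM in Astro and 612 to 1063 CPM in PAP. Erythroid markers were at 13 to 20.2 CPM in Astro and 2.64 to 403 CPM in PAP, the highest value being that of PAP 1. Choroid plexus markers spread over 2509.9 to 20237 CPM in Astro and 652 to 6631 CPM in PAP. The part of transcript length or of these cell types in the ferritin values was not tested. In pooled tissue of this kind, fewer cells of a type and less RNA per cell cannot be told apart.

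**Figure D4:**
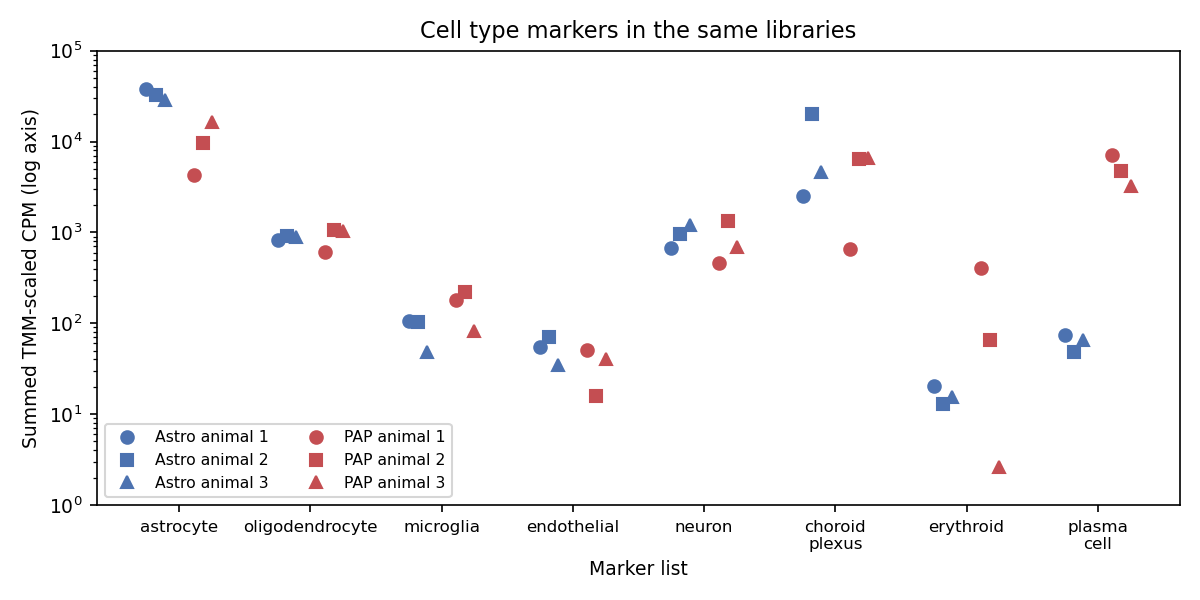
Summed TMM-scaled CPM (log axis) of 8 marker lists in each library, Astro in blue and PAP in red, with 1 marker shape per animal. Astrocyte markers are lower and plasma cell markers higher in all 3 PAP libraries, while the groups overlap for the oligodendrocyte, microglial, endothelial, neuronal, choroid plexus and erythroid lists.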

How the data were processed

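Ribosome-bound RNA was amplified with a SMART-Seq v4 kit and made into Nextera XT libraries, per the labels' protocols. The deposited values are raw gene counts, 1 file for each of 48 technical replicates, with whole numbers per the file headers and no scaling by the authors. The submitters' processing notes name bcl2fastq 2.18.0.12, Trim Galore 0.4.1, STAR 2.5.2b, SAMtools, HTSeq 0.5.3 and the build mm10; their settings, the annotation and the strand setting are not given in the sources used here.

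Counts of 8 technical replicates were summed per library. Gene names and positions came from GENCODE M21 on GRCm38, which held 47224 of 47643 gene IDs (99.12%). Testing used R 4.3.3 and edgeR 4.0.16 on genes passing filterByExpr at a minimum count of 10 (TMM factors, quasi-likelihood test, group alone, Benjamini-Hochberg adjustment over 14618 genes, threshold 0.05). The SE of a log2 fold change is the fold change over the root of F. The 9 genes, the iron lists and the marker lists were chosen with earlier results of these data known. Both libraries of an animal are labelled with it (C1 to C3), so the numbers pair the samples. Deviations from group means correlated at 0.0089 on average between same-numbered libraries and at -0.0045 between others. Outside the 9 genes, the iron genes named are, per direction, up to 8 called genes by size of log2 fold change, and, by function, Tf, Heph, Hmox1, Hmox2 and Pcbp1; a further gene under this rule is not reported here. For each ferritin, the 5 nearest profiles (log2 CPM with a prior count of 1) are named. Bounds for genes at 3 counts or fewer in all PAP libraries set the Astro mean against the largest PAP limit. Molecular identifiers are not mentioned in the labels. Alternatives were DESeq2 1.42.0, limma 3.58.1 voom with a weight per group, other scalings and filters, equal depth and subsets of technical replicates. Further alternatives were each library left out, the animal as a block, ferritin pseudogenes added (without Gm22133 and Gm6977) and a threshold of 0.01.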

Additional observations from a re-analysis of the deposited data

How the results depend on the processing

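Ftl1 kept a positive log2 fold change in all 18 alternatives (4.95 to 5.33) and so did Fth1 (1.52 to 1.91). Cp was positive in all 16 in which it was tested (2.01 to 3.01). Tfrc (-6.91 to -2.96), Aco1 (-12.25 to -2.55), Ncoa4 (-6.63 to -2.18), Ireb2 (-5.24 to -0.01) and Slc40a1 (-2.29 to -0.95) were negative in each. Slc11a2 changed sign to -1.01 with the replicate block, -1.16 in voom and -1.08 without PAP 1 (up to 1.22 without PAP 3), and Hmox2 went to 0.09 without PAP 2 (-0.57 without PAP 1); the cause was not tested.

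With the replicate block, called genes went from 865 higher and 2250 lower to 128 and 5 over all genes, from 2 higher to 1 among the 9, and from 4 higher and 15 lower to 0 and 0 among the other iron genes. DESeq2 called 1685 higher and 3456 lower over all genes and 12 and 23 other iron genes. Voom called 603 higher and 2915 lower over all genes. Among the 9 it called 1 higher and 2 lower, and among the other iron genes 2 higher and 16 lower. Without a filter 571 genes were higher, 2 of them other iron genes. A mean of at least 100 counts left 826 lower, and equal depth 1024. At an adjusted p under 0.01, 152 were higher and 11 lower, with 1 of the 9 higher and none of the other iron genes in either direction. Leaving out 1 library gave 114 to 1251 higher and 1 to 3335 lower over all genes, 1 to 3 higher and 0 to 2 lower among the 9, and 0 to 6 higher and 0 to 25 lower among the other iron genes. The low ends of the counts over all genes came from leaving out an Astro library. The cause of these shifts was not tested. Scaling moved the median of all genes to -0.46 with RLE or upper-quartile factors and -0.37 with library size alone. With 1829962 to 2980984 counts, a gene under the limit of its PAP library, 0.991 to 1.55 CPM, could not be told from absent.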
